A study of Mus musculus with 29 samples.

Results

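Mitochondrial ribosomal protein genes were followed across 29 Affymetrix arrays of mouse brain. The genes are those whose platform symbol starts with Mrpl (large subunit series) or Mrps (small subunit series), which gave 74 of the 12393 genes with a single symbol. Each gene was represented by the probe set with the highest mean over all arrays, and all 74 matched a RefSeq gene by Entrez ID with the symbol unchanged. By their place in the ribosome, 49 members belong to the large subunit and 24 to the small one. Symbols and subunits do not always coincide, since Mrps30 and Mrps18a are proteins of the large subunit. The remaining member, Mrps36, is now known as a component of the alpha-ketoglutarate dehydrogenase complex rather than of the ribosome, and it stayed in the set because its symbol meets the rule. Of the ribosomal members, 44 have a bacterial counterpart and 29 are specific to mitochondria.

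The mitochondrial ribosome translates the few messenger RNAs that the mitochondrial genome encodes, all of them for subunits of the respiratory chain and ATP synthase. Its RNA comes from the mitochondrial genome, but each of its proteins is encoded in the nucleus, made in the cytosol and imported. Neurons draw most of their ATP from respiration and so depend on this machinery. MPTP is a neurotoxin that brain cells turn into MPP+, an inhibitor of respiratory complex I that enters dopamine neurons.

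RNA came from the prefrontal cortex (18 arrays) and from the caudate-putamen, the dorsal striatum that receives the densest dopamine input (11 arrays). The mice were FVB/N animals, TgS mice carrying human AChE-S (the synaptic variant of acetylcholinesterase) and TgR mice carrying human AChE-R (the readthrough variant), both on the FVB/N background. The exposed mice received 4 injections of 20 mg/kg MPTP-HCl at 2 h intervals, 80 mg/kg in all, and tissue was taken 4 days later. The labels describe 6 saline-treated and 6 MPTP-treated mice per strain, 36 in all, and call the unexposed arrays naive. Region, strain and exposure form 12 groups: each strain's naive prefrontal group holds 4 arrays, the TgR caudate-putamen group given MPTP holds 1, and the other 8 hold 2 each. The age and sex of the mice, the number of mice behind an array, the transgene promoters and the number of founder lines do not appear in the labels. P-values therefore measure the spread between arrays, which may be technical. The description of 1 naive FVB/N caudate-putamen array (replicate 2) calls it MPTP-exposed, whereas its title, source and treatment fields call it naive, and it was used as naive.

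The values are log2 signals after RMA (robust multi-array averaging), so a difference of 1 is a doubling of signal. The number of arrays limits their precision, and levels of different genes cannot be ranked because each probe set has its own response. Differences come from a limma fit with 12 group means on 23 arrays, and ± marks their standard error. "Called" means an adjusted p (Benjamini-Hochberg over all 22626 probe sets, named transcripts below) under 0.05, and "rose" and "fell" are used only of called members. Naive prefrontal replicates 1 and 2 of each strain (6 arrays) were left out of this fit, since earlier work on these data had found them to stand apart. Their region is also spelled differently from replicates 3 and 4 in the source labels, in the spelling that the MPTP prefrontal arrays share, and what the spelling marks is not given in the sources used here. Replicates 3 and 4 are the prefrontal controls below unless stated otherwise, and results against replicates 1 and 2 are given beside them. The mean signal of 5 striatal projection neuron markers was 11.51 to 11.97 on naive caudate-putamen arrays, 8.30 to 8.51 on control arrays 3 and 4, 8.26 to 8.50 on MPTP prefrontal arrays and 8.60 to 9.56 on the arrays left out. All 5 measured cortical glutamatergic markers were higher, and all 5 striatal markers lower, in naive prefrontal cortex than in naive caudate-putamen.

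Mitochondrial ribosomal protein transcripts were lower in the prefrontal cortex after MPTP. Of 74 members, 40 fell and 5 rose on the mean of the 3 strains. Among all transcripts 50.5% were called in this comparison, 22% lower and 28.5% higher, so that 54.1% of members against 22% of transcripts were lower, and 6.76% against 28.5% were higher. The median difference was -0.11 over the members and 0.017 over all transcripts, and 59 members lay below 0. In whole tissue a lower signal can mean fewer cells of a type or less RNA per cell, which cannot be told apart. The exposed arrays and controls 3 and 4 also differ in the spelling of their source label and in array measures given below. In this comparison a difference between such sets of arrays cannot be told apart from MPTP.

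**Figure D1:**
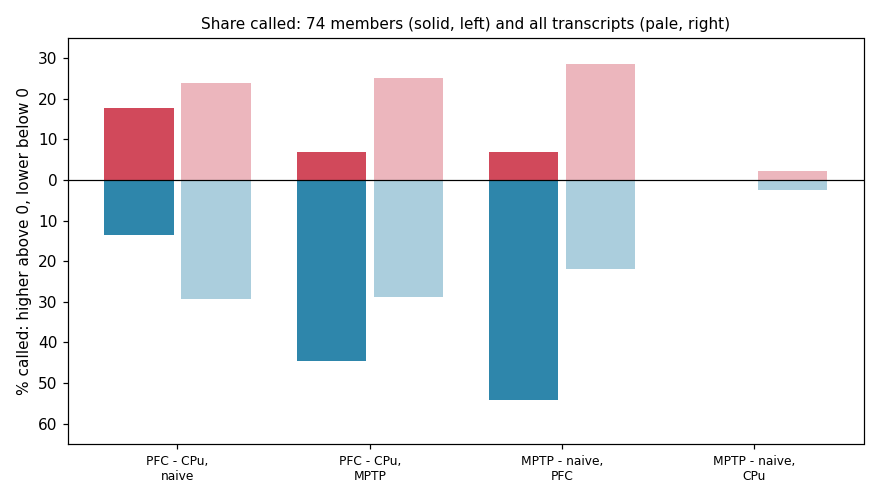
Share of the 74 members (solid bars, left) and of all 22626 transcripts (pale bars, right) that were called higher (above 0) or lower (below 0), in percent, in 4 comparisons. In prefrontal cortex after MPTP 54.1% of members and 22% of transcripts were lower, whereas in caudate-putamen no member was called.

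The member that fell most was Mrpl52, a large-subunit protein with no bacterial counterpart. Its log2 signal on the naive arrays was 9.46 and 9.30 for FVB/N mice, 9.27 and 9.23 for TgS, and 9.25 and 9.34 for TgR. After MPTP it was 8.72 and 8.75 for FVB/N mice, 8.80 and 8.53 for TgS, and 8.72 and 8.85 for TgR. Every exposed array thus lay below every control array. The difference was -0.58 ± 0.05 (adjusted p = 3.07e-07 in limma), and it was -0.62 against replicates 1 and 2, whose lowest value was 9.07. Of the 3 other Mrpl52 probe sets, 2 fell as well (-0.445 and -0.285, both called), and the dimmest stood at 0.018.

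Mrps18c, one of 3 mammalian proteins related to bacterial S18, is a small-subunit member and fell by 0.42 ± 0.05 (adjusted p = 4.66e-06). Its exposed arrays read 9.22 and 9.40 (FVB/N), 9.14 and 8.99 (TgS), and 9.29 and 9.23 (TgR). The control arrays ran from 9.56 to 9.72, and the groups did not overlap. Mrps31, a small-subunit protein specific to mitochondria, fell by 0.315 ± 0.04 (adjusted p = 1.66e-05). It read 8.71 to 8.90 on exposed arrays, with a median of 8.80, and 8.96 to 9.32 on controls, with a median of 9.115. These 2 genes and Mrpl52 were the members called lower in each strain when the strains were tested one at a time.

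The region just before the start of transcription is printed for those 3 genes, as the members that fell in each strain, and for Mrps22, which was added after its motif match had been seen. Each line gives the 150 bases before the annotated start, 5′ to 3′ on the gene's strand, from RefSeq on GRCm38.p6. Capitals mark a match to CCGGAAG, the core that ETS factors such as GABP bind, on either strand.
Mrpl52, chr14:54426759-54426908, plus strand: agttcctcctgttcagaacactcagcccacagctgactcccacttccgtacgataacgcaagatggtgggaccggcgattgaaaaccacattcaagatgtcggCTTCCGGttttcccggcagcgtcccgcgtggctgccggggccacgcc
Mrps22, chr9:98601680-98601829, minus strand: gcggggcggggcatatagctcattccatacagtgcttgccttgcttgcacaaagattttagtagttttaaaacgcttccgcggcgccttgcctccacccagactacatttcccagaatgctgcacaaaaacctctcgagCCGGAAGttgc
Mrps18c, chr5:100798609-100798758, plus strand: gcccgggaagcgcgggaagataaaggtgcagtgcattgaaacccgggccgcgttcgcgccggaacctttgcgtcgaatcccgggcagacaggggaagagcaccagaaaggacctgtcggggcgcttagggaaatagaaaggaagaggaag
Mrps31, chr8:22411190-22411339, plus strand: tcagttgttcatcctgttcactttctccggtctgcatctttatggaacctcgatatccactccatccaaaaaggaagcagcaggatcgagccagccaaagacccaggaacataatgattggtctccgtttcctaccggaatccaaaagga
ETS factors, NRF1 and YY1 are the regulators best known for acting on nuclear genes of mitochondrial proteins. Promoters in the RefSeq table, 300 bases long with 250 before the start and 50 after it, were found for 65 members, and Mrpl4 was not among them. These 65 genes have 71 promoter windows, since a gene can have several starts. CCGGAAG occurred in 33.8% of the members' windows and in 8.86% of the 32851 windows in the table. The NRF1 consensus, a palindrome with 1 base left free, occurred in 16.9% and 4.6%, and the YY1 string AAGATGGC in 15.5% and 2.75%. Counted by gene, CCGGAAG was found in 17 of 35 members called lower in the prefrontal cortex after MPTP (48.6%) and in 7 of the 30 others (23.3%). The NRF1 consensus was found in 20% of the lower members and 16.7% of the others, and the YY1 string in 11.4% and 23.3%. Both strands were searched, and an ETS match and a YY1 match can share the letters AAG. A match is a run of letters, not evidence of binding, and these shares were not tested.

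**Figure D2:**
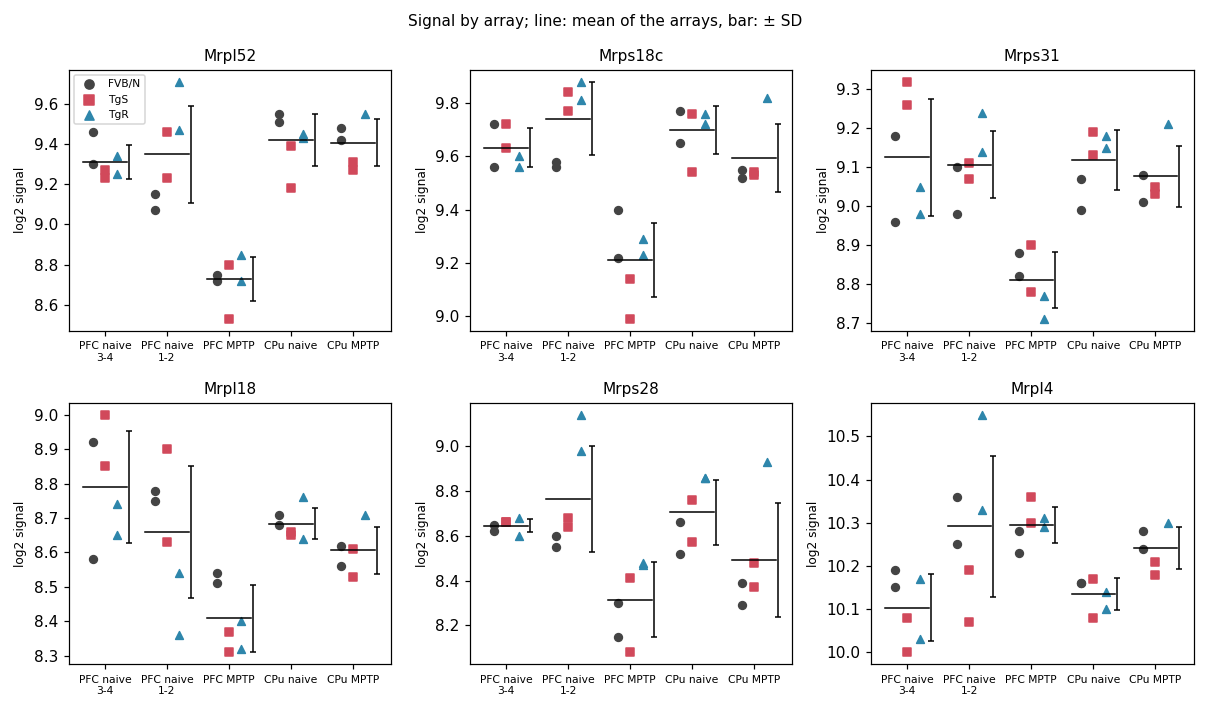
Log2 signal of 6 members on each array, by region and exposure, with the strain as symbol and colour; the line is the mean of the arrays and the bar their SD. Mrpl52 exposed prefrontal arrays sit between 8.53 and 8.85, below all 12 naive prefrontal arrays, while Mrpl4 runs from 10.23 to 10.36 on exposed arrays and from 10 to 10.19 on controls 3 and 4.

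The large subunit supplied 28 of the falls (of 49 members) and the small subunit 12 (of 24). Among the large-subunit members with bacterial counterparts, Mrpl18, whose bacterial relative binds 5S ribosomal RNA, fell by 0.38 ± 0.05 (adjusted p = 1.82e-05). It read 8.31 to 8.54 on exposed arrays and 8.58 to 9.0 on controls. Mrpl33 (-0.32 ± 0.07), Mrpl47 (-0.295 ± 0.05), Mrpl19 (-0.28 ± 0.05) and Mrpl20 (-0.27 ± 0.05) of the large subunit fell as well. Among small-subunit members Mrps28 (-0.33 ± 0.06) and Mrps22 (-0.295 ± 0.05) fell, the latter the mouse form of a human mitochondrial disease gene. By the classes given above, members with a bacterial counterpart were lower in 27 of 44 cases (61.4%). Those classed as specific to mitochondria were lower in 13 of 29 (44.8%), a difference that was not tested. Mrps36, the member outside the ribosome, was not called, and it read 9.37 to 9.64 on exposed arrays and 9.46 to 9.69 on controls, with overlap.

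The 5 members that rose were Mrpl4 (0.19 ± 0.04, adjusted p = 0.000372), Mrpl9 (0.15 ± 0.03), Mrpl37 (0.12 ± 0.04) and Mrps30 (0.11 ± 0.04) of the large subunit and Mrps5 (0.11 ± 0.04), a core protein of the small subunit. The bacterial counterpart of Mrpl4 lines the peptide exit tunnel. On the exposed arrays it read 10.23 and 10.28 (FVB/N), 10.36 and 10.30 (TgS), and 10.31 and 10.29 (TgR). On controls it read 10.19 and 10.15, 10.08 and 10, and 10.03 and 10.17 in the same order of strains. It was the only member whose 6 exposed arrays all lay above the 6 controls (1.35% of members, against 12.5% of transcripts), while 18 members lay wholly below them (24.3% against 8.42%). After quantile normalisation of the arrays 50 members were lower and Mrpl4 was the 1 member still higher (0.15). Mrps5 stood at 0.033 under that normalisation, and its second probe set at 0.033 in the fit as reported, not called.

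**Figure D3:**
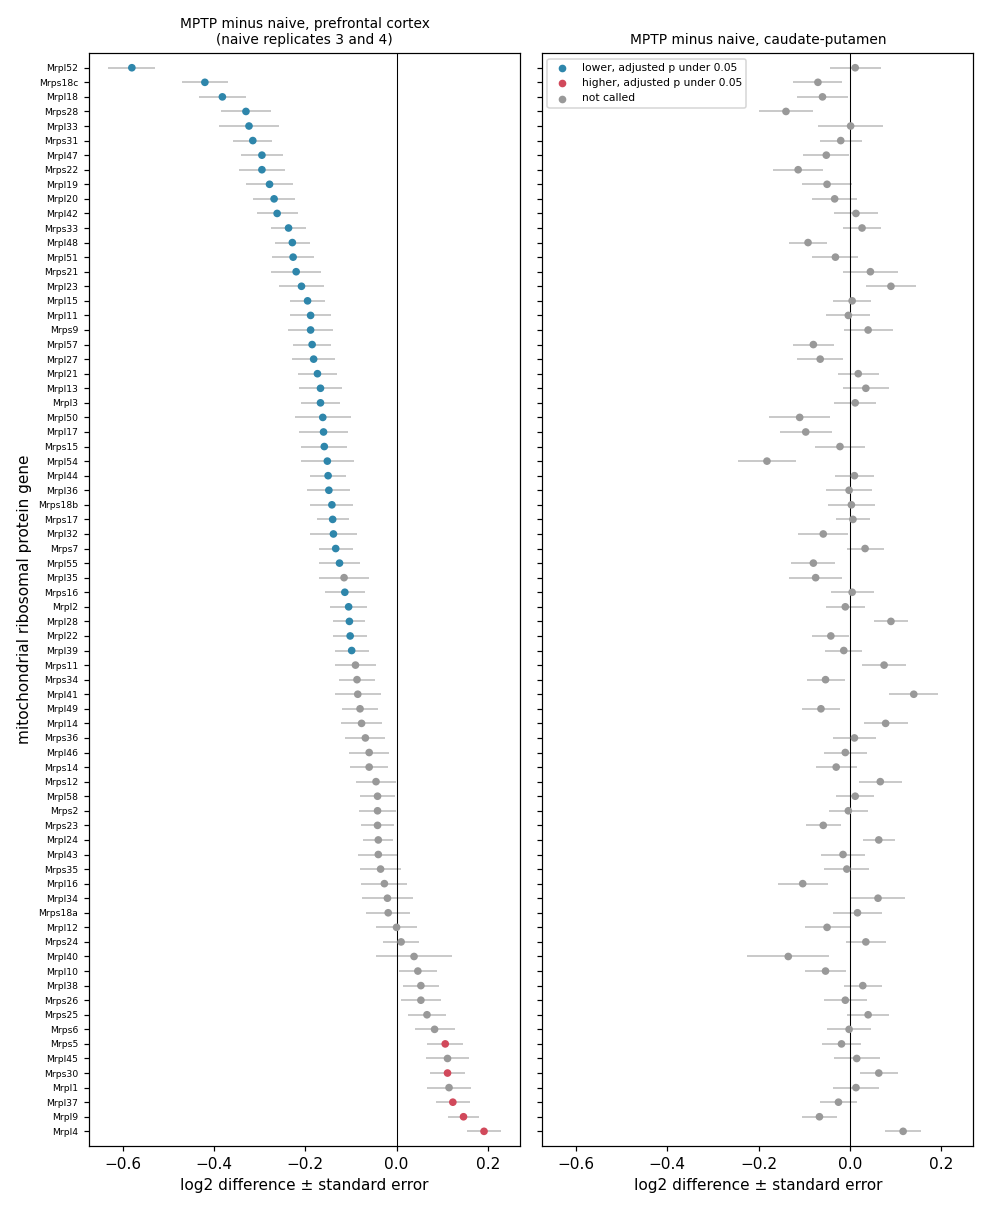
Log2 difference between MPTP and naive arrays, mean of 3 strains, with its standard error, for each of the 74 members in prefrontal cortex (left) and caudate-putamen (right), in the order of the prefrontal difference. Prefrontal differences run from -0.58 (Mrpl52) to 0.19 (Mrpl4), with 40 members called lower and 5 higher, and caudate-putamen differences from -0.18 to 0.14 with none called.

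The choice of control arrays moved these results in size and, for 3 of the 5 rises, in sign. Against naive replicates 1 and 2, 58 members were lower (41.4% of all transcripts were) and 2 higher (24.8% of transcripts). Against both control sets 35 members were lower, 47.3% of the members, compared with 15.9% of transcripts. Mrps5 was the member that was higher against both, at 0.11 and 0.235. Mrpl9, Mrpl37 and Mrps30 went to -0.14, -0.0067 and -0.17 against replicates 1 and 2, and Mrpl4 to 0.0033. Conversely Mrpl50 fell by 0.16 against replicates 3 and 4 and stood at 0.46 against replicates 1 and 2 (both called). For 11 members the 6 exposed arrays lay below all 12 naive prefrontal arrays, 14.9% of members against 3.46% of transcripts. These were Mrpl13, Mrpl15, Mrpl19, Mrpl23, Mrpl28, Mrpl52, Mrpl57, Mrps18c, Mrps22, Mrps28 and Mrps31.

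Array measures that do not depend on the members moved with the exposed prefrontal arrays too. The mean of the BioB hybridisation controls was 7.32 to 7.76 on them, 6.48 to 6.97 on controls 3 and 4 and 7.26 to 7.89 on replicates 1 and 2. The mean of the Dap controls was 7.15 to 7.57, 6.35 to 6.55 and 4.13 to 7.42 in the same order. The array median was 7.76 to 7.78 on exposed arrays and 7.66 to 7.7 on controls 3 and 4. The difference between 5′ and 3′ actin probe sets, which reads RNA integrity, was -0.83 to -0.62 on exposed arrays, -0.92 to -0.72 on controls 3 and 4 and -2.30 to -0.79 on replicates 1 and 2. The mean of the 74 members ran the other way, at 9.42 to 9.54 on exposed arrays, 9.57 to 9.66 on controls 3 and 4 and 9.64 to 9.85 on replicates 1 and 2. Endothelial markers were higher on exposed arrays than on controls 3 and 4 (6 of 7, median 0.71), with mean levels of 8.15 to 8.44 against 7.17 to 8.19. Against replicates 1 and 2 only 1 of these 7 was higher and 2 were lower. Of 8 microglial markers 5 were higher and 1 lower, with mean levels of 8.86 to 9.10 against 8.60 to 8.85. Replicates 1 and 2 read 8.72 to 9.12, which covers the exposed range, and against them 4 of the 8 were higher and 3 lower. Among 8 astrocyte markers 3 were higher, Gfap by 1.03, and 3 lower, with mean levels of 10.66 to 10.83 against 10.43 to 10.79. Among 5 cortical glutamatergic markers Neurod2 was higher (0.435) and Neurod6 (-0.67) and Tbr1 (-0.49) were lower, at 9.83 to 10.27 against 9.87 to 10.37. Of 7 oligodendrocyte markers 1 was called, Mog (-0.53), at 10.01 to 10.37 against 10.14 to 10.58. Of 7 meningeal markers 2 were higher, Slc6a13 (0.965) and Col1a2 (0.52), and 1 lower, at 7.34 to 7.78 against 7.22 to 7.58. Of 5 striatal markers 2 were higher and 1 lower, and no choroid plexus, olfactory bulb or thalamic marker was called in limma or had an unadjusted p under 0.05. Against replicates 1 and 2 Gfap, Slc6a13 and Col1a2 stood at -0.08, 0.023 and -0.28, and all 4 olfactory bulb markers were lower (median -1.22). The part of these measures in the result was not tested.

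**Figure D4:**
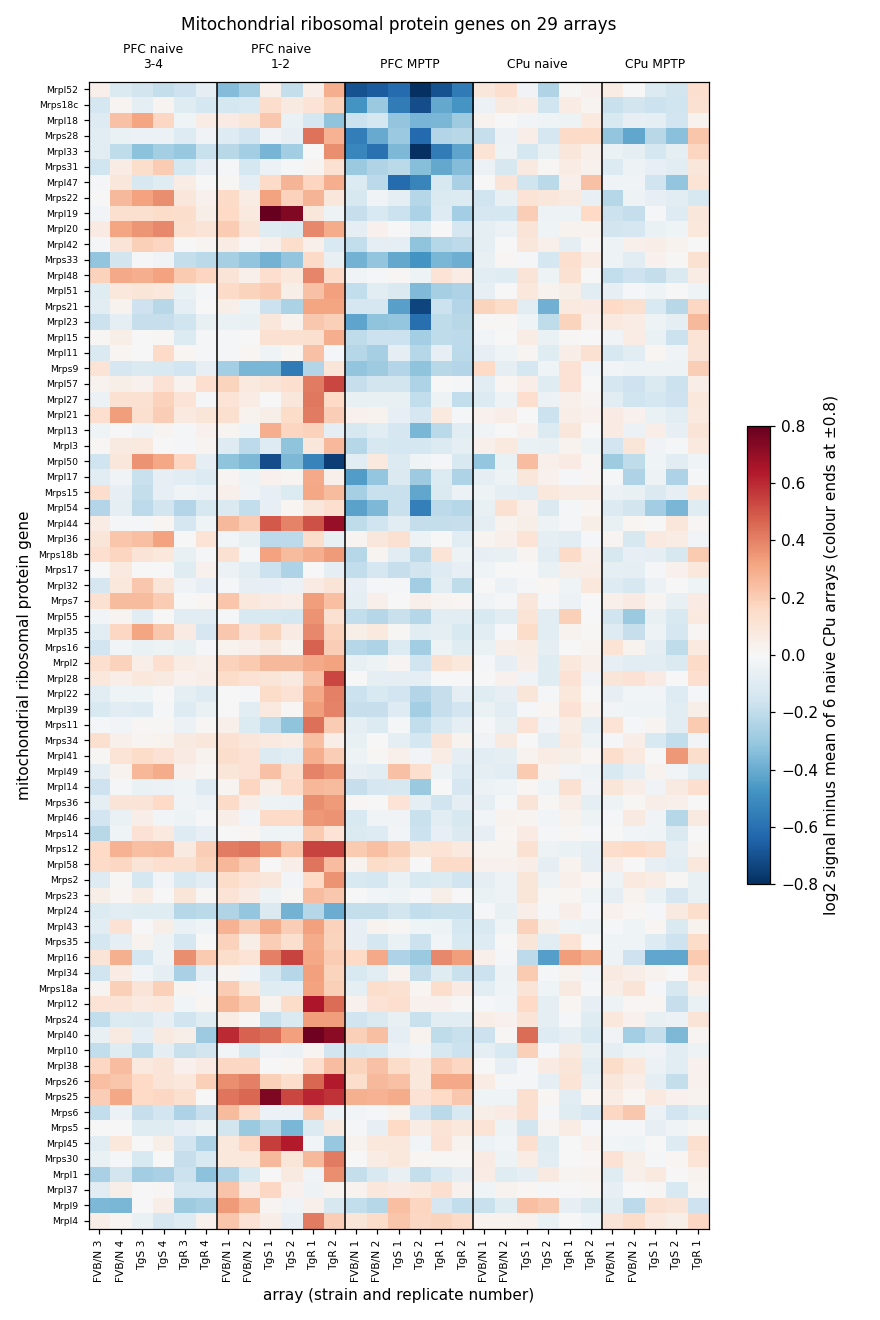
Log2 signal of each of the 74 members on all 29 arrays, as the difference from that gene's mean over the 6 naive caudate-putamen arrays (colour, ending at ±0.8), with members in the order of the prefrontal MPTP difference. The block of MPTP prefrontal arrays is blue over its upper part, where Mrpl52 and Mrps18c lie, and the naive prefrontal replicates 1 and 2 are redder and more uneven than replicates 3 and 4.

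Tested strain by strain, the counts of lower members were smaller. In TgS 31 members (41.9%) were lower and 3 (4.05%) higher, against 15.8% and 21.4% of transcripts (37.1% in all). In FVB/N 16 members (21.6%) were lower and 0 higher, against 7.5% and 11.4% of transcripts. In TgR 6 members (8.11%) were lower and 3 (4.05%) higher, against 8.66% and 13.9% of transcripts. The share of members called lower in TgR was thus near that of all transcripts. Of the 40 members called lower on the mean of strains, 35 were below 0 in every strain. That call was made on the mean of these same differences, so the signs are not separate support. In TgS the largest falls were those of Mrps18c (-0.61 ± 0.09), Mrpl18 and Mrpl52 (each -0.585 ± 0.09). Mrpl52 stood at -0.645 ± 0.09 in FVB/N and -0.51 ± 0.09 in TgR. Among members that rose in a strain were Mrpl4 and Mrps5 in TgS (0.29 ± 0.06 and 0.21 ± 0.07) and Mrpl45 and Mrpl37 in TgR (0.27 ± 0.08 and 0.22 ± 0.07). No member's MPTP effect differed between TgS and FVB/N or between TgR and FVB/N in limma at adjusted p under 0.05, where 0.645% and 0.0707% of transcripts did. At an unadjusted p under 0.05 there were 12 and 3 such members, and without FVB/N naive replicate 4 the first comparison called 1. Against naive replicates 1 and 2, limma called 6 members in the first comparison and 8 in the second, where 10.9% and 10.4% of transcripts were called. Members called in either direction numbered 16 in FVB/N, 34 in TgS and 9 in TgR. With 2 arrays a group these either-direction counts leaned on single arrays. The FVB/N count was 1 without MPTP replicate 1, 7 without MPTP replicate 2 and 5 without naive replicate 4. In TgS it was 16 without MPTP replicate 2 and 19 without either naive replicate. In TgR it was 3 without MPTP replicate 1 or either naive replicate and 5 without MPTP replicate 2. With naive replicates 1 and 2 as the controls it was 55 (53 lower and 2 higher), where 54.2% of transcripts were called.

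In the caudate-putamen no member was called after MPTP, where 4.54% of transcripts were (2.2% higher and 2.35% lower). At an unadjusted p under 0.05 limma had 3 members higher and 3 lower, and the median difference was -0.0050 over members and 0.012 over transcripts. The smallest p was that of Mrpl4. Its naive arrays read 10.16 and 10.16 (FVB/N), 10.17 and 10.08 (TgS), and 10.14 and 10.10 (TgR). The exposed arrays read 10.24 and 10.28 (FVB/N), 10.21 and 10.18 (TgS), and 10.30 (TgR). All 5 exposed arrays lay above all 6 naive ones, which held for no other member (1.35% of members, 1.08% of transcripts). The difference was 0.12 ± 0.04 (adjusted p = 0.107). Without TgS MPTP replicate 1 limma called 1 member, Mrpl41 (0.20, adjusted p = 0.0143), while Mrpl4 had an adjusted p of 0.173. Mrpl54, Mrpl41, Mrpl28 and Mrps28 followed at -0.18 ± 0.06, 0.14 ± 0.05, 0.09 ± 0.04 and -0.14 ± 0.06. Neither FVB/N nor TgS alone had a member called in this region (0.676% and 3.78% of transcripts were, as 0.424% higher and 0.252% lower and as 1.73% and 2.05%), with 3 and 8 at an unadjusted p under 0.05 in limma. The TgS count was 1 without naive replicate 2 or without MPTP replicate 1. The MPTP effect in this region differed between TgS and FVB/N at no member in limma, with 2 at an unadjusted p under 0.05, where 1.42% of transcripts differed. Among cell markers in this region, 6 of 8 microglial ones were higher, with mean levels of 9.05 to 9.33 on exposed and 8.53 to 8.80 on naive arrays. The meningeal markers Igfbp2 (-0.75), Col3a1 (-0.56), Lum (-0.54), Dcn (-0.44) and Col1a2 (-0.24) were called lower. Also called were Gfap (0.545), Slc1a2 (0.40) and Aqp4 (-0.41) of astrocytes, cortical Fezf2 (0.47) and thalamic Slc17a6 (-0.965). No endothelial, oligodendrocyte, striatal, choroid plexus or olfactory bulb marker was called. The part of these markers was not tested.

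The MPTP effect itself differed between the regions for 25 members, 24 of them lower in the prefrontal cortex and 1 higher, where 32.5% of transcripts differed (14% lower, 18.5% higher). The differences of effect were -0.59 ± 0.08 for Mrpl52 (adjusted p = 6.02e-05), -0.35 ± 0.07 for Mrps18c and -0.295 ± 0.06 for Mrps31. Mrpl23, which contacts the ribosome near the exit of the peptide tunnel in bacteria, had a difference of -0.30 ± 0.07. Its exposed prefrontal arrays read 9.52 to 9.92 and its controls 9.94 to 10.06, while in caudate-putamen it read 10.05 to 10.38 exposed and 9.92 to 10.30 naive. Prefrontal groups did not overlap for this gene and caudate-putamen groups did. Mrpl9 had a difference of 0.21 ± 0.05, which became -0.077 against replicates 1 and 2. The count was 16 without FVB/N prefrontal MPTP replicate 1.

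Between naive regions the members split. Against the caudate-putamen 13 members (17.6%) were higher and 10 (13.5%) lower in the prefrontal cortex. In all 31.1% of members were called, against 53.2% of transcripts (23.8% higher and 29.4% lower). The median was -0.0058 over members. Mrpl48 was higher by 0.25 ± 0.04 (adjusted p = 4.70e-05), reading 10.09 to 10.24 in prefrontal cortex and 9.82 to 10.04 in caudate-putamen without overlap. How many of all transcripts lacked overlap between the naive regions was not recorded. Mrps12, the counterpart of the bacterial decoding protein S12, was higher by 0.20 ± 0.04, and Mrps26 and Mrps25 by 0.17 ± 0.04 and 0.16 ± 0.04. Mrpl1, part of the stalk through which the deacylated tRNA leaves in bacteria, was lower, with a difference of -0.24 ± 0.05 (adjusted p = 0.000408). It read 7.79 to 7.97 against 8.02 to 8.19, and a second probe set of this gene was called in the opposite direction, as was one of Mrpl33 and one of Mrps24. With quantile normalisation the split was 18 higher and 7 lower, and with replicates 1 and 2 as the prefrontal arrays it was 39 and 6 (37.9% and 27.2% of transcripts). Mrps12, Mrps26 and Mrps25 then differed by 0.415, 0.37 and 0.56, and Mrpl1 by 0.0067. Striatal markers were 8.30 to 8.51 on controls 3 and 4 and 8.60 to 9.56 on those replicates, as given above, and their part was not tested.

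Among MPTP-exposed arrays, which also enter the MPTP comparisons, 33 members were lower and 5 higher in the prefrontal cortex than in the caudate-putamen (28.7% and 25.2% of transcripts, 53.9% in all). Mrpl52 differed most, by -0.70 ± 0.06 (adjusted p = 2.21e-08), with 8.53 to 8.85 against 9.27 to 9.55. Mrpl33, one of the smallest large-subunit proteins, differed by -0.55 ± 0.07, reading 7.80 to 8.29 against 8.51 to 8.82. Mrps18c and Mrps33 each differed by -0.42 and Mrpl23 by -0.44. None of these groups of arrays overlapped, but the share of all transcripts without overlap between these regions was not recorded. Mrps26 (0.23 ± 0.05) and Mrps25 (0.185 ± 0.05) were higher in the prefrontal cortex, as they were in naive mice. TgR caudate-putamen is a single array in this comparison.

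The transgenic lines differed from FVB/N at few members. TgS against FVB/N gave 2 higher members and 0 lower in naive prefrontal cortex (3.73% of transcripts called, 1.05% higher and 2.68% lower), 1 and 2 in naive caudate-putamen (9.25%, as 6.21% and 3.04%), 1 and 3 in MPTP prefrontal cortex (1.15%, as 0.552% and 0.601%) and 1 and 1 in MPTP caudate-putamen (4.04%, as 2.44% and 1.61%). Mrpl9, a large-subunit protein whose bacterial counterpart forms an extended stalk, was called higher in TgS in all 4. Its differences were 0.39 ± 0.06, 0.365 ± 0.06, 0.42 ± 0.06 and 0.26 ± 0.06 in that order, with adjusted p of 0.00132, 0.00112, 0.00109 and 0.0235 in limma. Over the 23 arrays its signal was 9.24 to 9.48 in TgS (median 9.385), 8.87 to 9.15 in FVB/N and 8.95 to 9.17 in TgR. No TgS array overlapped with another strain. The share of all transcripts that separate strains in this way was not recorded. A second Mrpl9 probe set was higher in TgS by 0.50 ± 0.11 in naive prefrontal cortex and 0.445 ± 0.11 in naive caudate-putamen, both called, and by 0.37 and 0.315 in MPTP mice, not called.

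Mrpl16, whose bacterial counterpart helps position tRNA at the peptidyl transferase centre, went the other way. Its signal was 9.47 to 9.87 in TgS, 9.74 to 10.21 in FVB/N and 10.12 to 10.29 in TgR, and TgS overlapped with FVB/N but not with TgR. TgS minus FVB/N was -0.28 ± 0.09 in naive prefrontal cortex (adjusted p = 0.0884), -0.34 ± 0.09 in naive caudate-putamen (adjusted p = 0.0215), -0.505 ± 0.09 in MPTP prefrontal cortex (adjusted p = 0.00603) and -0.315 ± 0.09 in MPTP caudate-putamen (adjusted p = 0.0553). Against TgR it was -0.38 ± 0.09, -0.63 ± 0.09 and -0.63 ± 0.09 in the first 3 of these settings, called in each. Mrps21 was lower in TgS in naive caudate-putamen (-0.395 ± 0.10) and in MPTP prefrontal cortex (-0.45 ± 0.10). Its TgS arrays read 8.87 to 9.52 and its FVB/N arrays 9.47 to 9.78. Mrpl47 was lower in MPTP prefrontal cortex (-0.41 ± 0.08), where the TgS arrays read 7.75 and 7.84 and the FVB/N arrays 8.26 and 8.15. Mrpl49 was higher in naive prefrontal cortex (0.305 ± 0.07), at 9.71 and 9.74 in TgS and 9.37 and 9.47 in FVB/N.

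**Figure D5:**
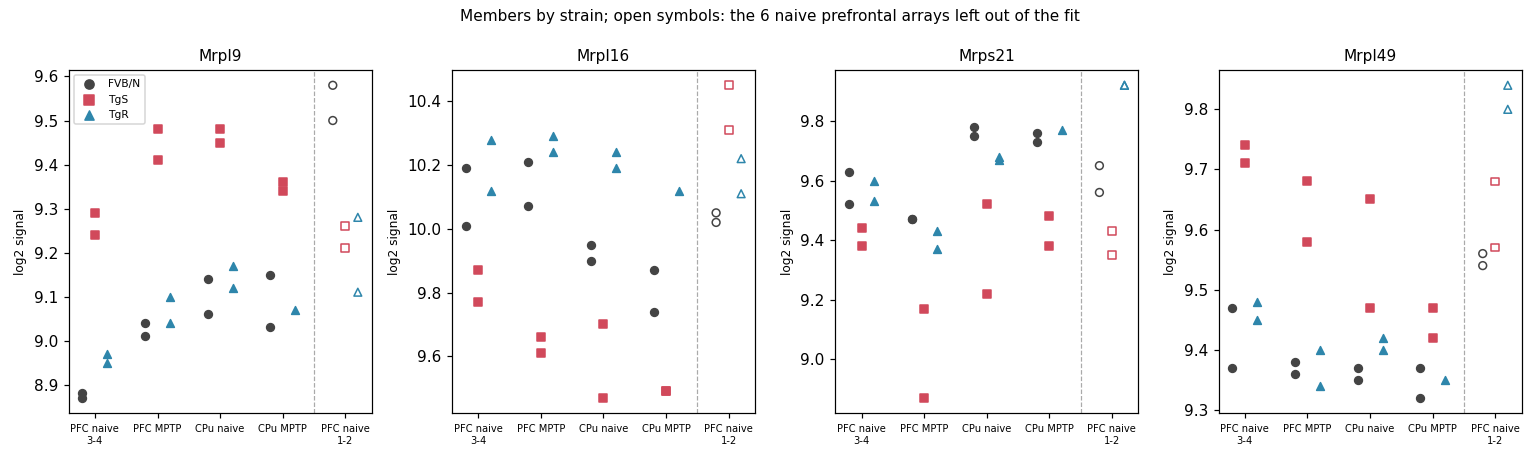
Log2 signal of Mrpl9, Mrpl16, Mrps21 and Mrpl49 on each array, by region and exposure, with the strain as symbol and colour; open symbols right of the dashed line are the 6 naive prefrontal arrays left out of the fit. Mrpl9 is 9.24 to 9.48 on the filled TgS symbols and at most 9.17 on the other filled ones, and among the open symbols FVB/N (9.58 and 9.50) lies above TgS (9.26 and 9.21).

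The 6 naive prefrontal arrays left out showed another order of strains at these genes. Mrpl9 read 9.58 and 9.50 on the arrays labelled FVB/N, 9.26 and 9.21 on those labelled TgS and 9.28 and 9.11 on those labelled TgR. Mrpl16 read 10.31 and 10.45 on those labelled TgS and 10.05 and 10.02 on those labelled FVB/N. With them as the naive prefrontal arrays, TgS minus FVB/N was -0.305 for Mrpl9 and 0.345 for Mrpl16, both called. Each is opposite in sign to the other 3 settings. Mrpl19 read 9.41 and 9.28 on the 2 TgS arrays of this set and 8.27 to 8.74 on every other array. Endothelial markers differed between the strains as well: all 7 were lower in TgS than in FVB/N on naive prefrontal replicates 3 and 4 (median -0.795), with mean levels of 7.20 and 7.17 against 8.19 and 7.92, and 1 of 7 was lower in naive caudate-putamen. On naive caudate-putamen arrays, where Mrpl9, Mrpl16 and Mrps21 were called, 4 of 5 cortical glutamatergic markers were lower in TgS than in FVB/N (median -1.35), including Neurod6 (-2.62) and Tbr1 (-1.47). Their mean level was 7.13 and 7.46 on the TgS arrays and 8.82 and 8.36 on the FVB/N arrays. In the same comparison 4 of 5 thalamic markers were higher in TgS (median 0.69), including Slc17a6 (1.465) and Gbx2 (0.97), with mean levels of 7.62 and 7.98 against 6.98 and 7.07. The part of these markers in the strain results was not tested. The counts of members by strain moved with single arrays, from 1 to 10 in naive prefrontal cortex (10 without FVB/N naive replicate 4, 1 without FVB/N naive replicate 3 or either TgS replicate), 1 to 6 in naive caudate-putamen (6 without TgS naive replicate 2, 1 without FVB/N naive replicate 1), 1 to 5 in MPTP prefrontal cortex (1 without TgS MPTP replicate 2, 2 without either FVB/N MPTP replicate) and 0 to 4 in MPTP caudate-putamen. The last was 0 without FVB/N MPTP replicate 2 or either TgS MPTP replicate, 4 without either TgS naive replicate and 1 without any one of 11 other arrays of either region.

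TgS and TgR differed at 4 members in naive prefrontal cortex (4.79% of transcripts, 1.65% higher in TgS and 3.14% lower), 3 in naive caudate-putamen (2.93%, as 1.49% and 1.44%) and 5 in MPTP prefrontal cortex (3.2%, as 1.62% and 1.58%), with Mrpl9 higher and Mrpl16 lower in TgS each time. Mrpl9 differed by 0.305 ± 0.06, 0.32 ± 0.06 and 0.375 ± 0.06. The first of these counts ran from 0 (without TgS or TgR naive replicate 4) to 7 (without either FVB/N naive replicate), the second was 1 without TgR naive replicate 2 and the last 2 without TgR MPTP replicate 1. The first was also 1 without TgS or TgR naive replicate 3, and the last 3 without any one of 12 other arrays of either region. TgR and FVB/N differed at no member in limma in naive prefrontal cortex, naive caudate-putamen or MPTP prefrontal cortex, where 0.0486%, 0.407% and 1.04% of transcripts differed. Transcripts higher in TgR made up 0.0265%, 0.371% and 0.468% and those lower 0.0221%, 0.0354% and 0.57%. At an unadjusted p under 0.05 there were 6, 7 and 6 members. With replicates 1 and 2 as the naive prefrontal arrays, limma called 33 members between TgR and FVB/N (30 higher in TgR and 3 lower), where 32% of transcripts were called. With those arrays it called 39 members between TgS and TgR (34.2% of transcripts) and 6 between TgS and FVB/N (23.4%).

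Other genes of mitochondrial gene expression, from lists that were chosen with earlier results known, moved in both directions in the prefrontal cortex after MPTP. Their counts are to be read against the 28.5% of all transcripts that were higher and the 22% that were lower in this comparison, and nothing particular to a list was tested. Of 8 measured mitochondrial aminoacyl-tRNA synthetases, which charge the tRNAs, 3 were higher and 1 lower, among them Hars2 (0.32 ± 0.06) and Iars2 (-0.27 ± 0.04). Of 10 translation factors 2 were higher, Gfm2 (0.33 ± 0.04, a factor that recycles ribosomes) and Tufm (0.25 ± 0.04, the elongation factor that delivers aminoacyl-tRNA), and 4 lower, including Qrsl1 (-0.45 ± 0.06) and Gatb (-0.21 ± 0.05), subunits of the amidotransferase that makes glutaminyl-tRNA. Of 17 assembly factors of the mitochondrial ribosome 5 were higher, including Dhx30 (0.28 ± 0.04) and Mettl17 (0.32 ± 0.05), and 6 lower. Of 9 genes of mitochondrial DNA copying, transcription and transcript stability 2 were higher, Polg (0.44 ± 0.06, the DNA polymerase) and Polrmt (0.30 ± 0.07, the RNA polymerase), and 1 lower. Of 16 genes in a list made mostly of import and chaperone genes 3 were higher and 7 lower, including Tomm70a (-0.325 ± 0.04) and Tomm20 (-0.31 ± 0.04), receptors on the outer membrane. These counts include citrate synthase (Cs, higher by 0.12) and the outer-membrane channel Vdac1 (-0.18), which are neither import nor chaperone genes. Of 4 mitochondrial ribosomal proteins with other symbols 2 were lower, Ptcd3 (-0.19 ± 0.04) and Chchd1 (-0.155 ± 0.04), and 1 higher, Dap3 (0.09 ± 0.04). The medians of these 6 lists lay between -0.093 and 0.041. Against naive replicates 1 and 2 Ptcd3, Dap3, Tufm and Cs stood at 0.25, -0.12, -0.032 and -0.077, opposite in sign. The other genes named here kept their sign, with Iars2 and Polrmt at -0.0083 and 0.038. Called genes not named here changed sign too. Ears2 and Noa1 went to -0.052 and -0.20, and Mterf3, Mtg1, Fastkd2 and Hspa9 to 0.17, 0.098, 0.012 and 0.083.

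Probe sets of the same gene agreed for most members in the prefrontal MPTP comparison. Of the members called there, 21 have other probe sets. For 17 of these every other probe set had the same sign, and for 8 every one was called in that direction. Mrps9 was the exception with a call in the opposite direction: its probe set in use stood at -0.19 ± 0.05, 2 others at -0.11 and -0.085 and the dimmest at 0.535 ± 0.08. Between naive regions 8 called members have other probe sets. For 3 of these every other one had the same sign, and for 3 (Mrpl1, Mrpl33 and Mrps24) one was called oppositely. Between MPTP regions every other probe set had the same sign for 16 of 23, and Mrpl48 and Mrps2 had an opposite call.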

How the data were processed

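The deposited values are log2 signals per probe set, made by the authors; per the submitters' processing notes RMA, Affymetrix Expression Console and Affymetrix Power Tools were used, with versions not given in the sources used here. Background signals were not used here, so no detection limit is given. Control probe sets (64) were left out, and 22626 remained, of which 20380 carry 1 gene symbol, 691 several and 1555 none in the platform annotation. The members have 127 probe sets, 33 genes having several, and 3 probe sets with several symbols were left out.

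Group means of the 12 groups were fitted on 23 arrays with limma 3.58.1 (lmFit, eBayes, R 4.3.3), leaving 11 residual degrees of freedom, and p-values were adjusted by Benjamini-Hochberg. The procedure was checked on simulated data. Roles, subunits, related lists and marker lists were assigned by hand, and the members and lists were chosen with earlier results of these data known. Named genes were, per comparison, up to 10 called members with the largest rise and 10 with the largest fall, or the 5 with the smallest p where under 5 were called. Up to 4 genes of a related list were named by smallest p, with Cs added for what it encodes. Of 173 such values, 46 that were not called are outside the sensitivity results, and 14 of these change sign under at least 1 setting (18 sign changes). The genes printed in full were picked from these after their values were seen, as was the Mrps22 promoter. Alternatives were the choice of control arrays, each region alone, the replicate block, quantile normalisation, dim probe sets left out (the lowest 0.25 of means), a trended robust variance, the mean of probe sets and each array left out. No 2 arrays were duplicates.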

Additional observations from a re-analysis of the deposited data

Results flagged for a closer look

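For 25 members the MPTP effect differed between prefrontal cortex and caudate-putamen in limma's test of that difference (Benjamini-Hochberg adjusted p under 0.05). The effect was lower in the prefrontal cortex for 24 of them and higher for 1. Among all transcripts 32.5% differed (14% lower, 18.5% higher). The 11 members listed here are those that were named, and the naming rule capped their number. The difference of the log2 effects was -0.59 for Mrpl52, -0.35 for Mrps18c, -0.325 for Mrpl33, -0.32 for Mrpl18 and -0.30 for Mrpl23. It was -0.295 for Mrps31, -0.275 for Mrpl42, -0.265 for Mrps21, -0.26 for Mrps33 and -0.24 for Mrpl47. Mrpl9 had a difference of 0.21 in the other direction.

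In groups of 4 arrays, which are the naive prefrontal groups, 1 array stood apart from the other 3 by more than Dixon's critical value for 6 of the 135 member values tested. Chance alone gives about 1 in 20. These were Mrpl23 (9.95) on FVB/N replicate 3, Mrpl38 (8.81) and Mrps18c (9.72) on FVB/N replicate 4, Mrpl10 (10.31) on TgR replicate 1, and Mrpl24 on TgR replicate 2 (9.73) and TgS replicate 2 (9.75).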

How the results depend on the processing

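Counts of called members are given where they moved by over 1.5 times, and values where a called member changed sign. The cause was not tested. Where no count over all transcripts stands beside a member count, here or with arrays left out, that share was not recorded. With all 29 arrays and a term for the prefrontal control set, the counts were 40 between naive regions, 42 for MPTP in TgR prefrontal cortex, 1 for TgS against FVB/N and 10 for TgS against TgR in naive prefrontal cortex, 0 and 1 for the same pairs in naive caudate-putamen, 0 and 1 in MPTP prefrontal cortex, and 0 for TgS against FVB/N in MPTP caudate-putamen. Of all 22626 transcripts, 13604, 9892, 2471, 4210, 495, 175, 82, 257 and 157 were called in the same order. With no such term they were 15 between naive and 20 between MPTP regions, 1 and 18 for MPTP in FVB/N and TgS prefrontal cortex, 8 for the MPTP effect between regions, and 0 for TgS against FVB/N in all 4 settings and for TgS against TgR in naive caudate-putamen and MPTP prefrontal cortex. With naive prefrontal replicates 1 and 2 as controls they were 45 between naive regions, 55 for MPTP in TgR, 6, 33 and 39 for TgS against FVB/N, TgR against FVB/N and TgS against TgR in naive prefrontal cortex, 3 for TgS against TgR in MPTP prefrontal cortex, 0 for TgS against FVB/N in MPTP caudate-putamen, 43 for the effect between regions, and 6 and 8 for the prefrontal effect in TgS and TgR against FVB/N. The transcripts called in these comparisons numbered 14718, 12262, 5302, 7234, 7729, 480, 500, 11636, 2457 and 2351 in the same order. With each region fitted alone they were 10 for MPTP in FVB/N prefrontal cortex, 2, 1 and 3 for TgS against TgR in naive prefrontal cortex, naive caudate-putamen and MPTP prefrontal cortex, and 0 for TgS against FVB/N in MPTP caudate-putamen. Quantile normalisation gave 25 for MPTP in FVB/N prefrontal cortex, and averaging a gene's probe sets gave 17 in TgR.

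Between naive regions Mrpl36, Mrpl1, Mrpl9, Mrps6, Mrpl23 and Mrps24 were at -0.07, 0.0067, 0.087, 0.08, 0.068 and 0.073 with the set term and, equally, with replicates 1 and 2, and Mrpl1 and Mrps24 at 0.11 and 0.048 with the mean of probe sets. For MPTP in prefrontal cortex Mrpl9, Mrpl37 and Mrps30 were at -0.14, -0.0067 and -0.17 in both settings, and Mrps30 at -0.03 with no set term. Mrpl9's effect between regions was -0.077 in both. Mrpl48 between MPTP regions was -0.045 with the mean of probe sets. Strain by strain, replicates 1 and 2 put Mrps9 at 0.02 in FVB/N, Mrpl20 at 0.065 and Mrpl50 at 0.465 in TgS, and Mrpl4 at -0.14 in TgR. The set term put Mrpl50 at 0.34 and Mrpl4 at -0.064, and no set term put Mrpl50 at 0.03. In naive prefrontal cortex TgS minus FVB/N was -0.305 for Mrpl9 and 0.345 for Mrpl16 with replicates 1 and 2, and 0.0325 for Mrpl16 with and without the set term. TgS minus TgR was then 0.215 for Mrpl16, -0.195 for Mrpl49 and -0.10 for Mrps31 with replicates 1 and 2.

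Leaving out each array in turn gave 35 to 47 members for MPTP in prefrontal cortex, 0 to 1 in caudate-putamen, 1 to 20 in FVB/N, 16 to 34 in TgS and 3 to 11 in TgR prefrontal cortex, 0 to 1 in TgS caudate-putamen and 16 to 29 for the effect between regions. It gave 0 to 1 for the prefrontal effect in TgS against FVB/N, 19 to 27 between naive and 33 to 40 between MPTP regions. TgS against FVB/N ranged from 1 to 10 (naive) and 1 to 5 (MPTP) in prefrontal cortex and from 1 to 6 and 0 to 4 in caudate-putamen. TgS against TgR ranged from 0 to 7, 1 to 3 and 2 to 5 in naive prefrontal cortex, naive caudate-putamen and MPTP prefrontal cortex. Within a region and treatment, same-numbered arrays of different strains did not deviate together (10 correlations from -0.36 to 0.15). Same-numbered arrays of different regions were not compared, so whether they share mice was not tested. The main fit treats all arrays as independent. With the number as a replicate block the prefrontal MPTP count was 44, and the count for TgS against FVB/N in MPTP caudate-putamen was 1.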
